A study of Schizosaccharomyces pombe
Saccharomyces cerevisiae with 16 samples.

Results

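The 9 genes described here encode enzymes, permeases and a repressor of arginine, proline and nitrogen catabolism in Saccharomyces cerevisiae (budding yeast). They were found by their systematic IDs, and all 9 were among the 6859 genes of the table of newly synthesized RNA and the 6805 genes of the table of total RNA. The genes are CAR1 and CAR2 (arginine), PUT1 and PUT2 (proline), DUR1,2 (urea), GAP1 and MEP2 (permeases), DAL80 (repressor) and GDH2 (glutamate). They were chosen with earlier results of these data in view, among them the fall of new CAR2 RNA with auxin in the Med14 strain. The values they were selected on are therefore given as a description, without p-values, and calls by the threshold on them are no support. The part that the other genes' values had in the choice is not recorded, so every change of their new RNA with auxin, and its difference between the strains, is treated in this way. The tests given for total RNA, for the strains in DMSO and for further genes of nitrogen metabolism are no independent support, since those genes were also listed with results known and the libraries are partly the same. Of the 9 genes, 8 passed the filter on low counts in each table (of 6072 genes tested for new RNA and 5625 for total RNA), and DAL80 did not.

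Yeast cells that run short of a preferred nitrogen source take ammonia and glutamate from amino acids. Arginase (CAR1) splits arginine into urea and ornithine, urea is broken down by DUR1,2, and ornithine is carried by the transaminase CAR2 towards proline. Proline is oxidized to glutamate in the mitochondrion by PUT1 and PUT2, and GDH2 releases ammonia from glutamate. GAP1 and MEP2 bring amino acids and ammonium into the cell. In rich medium many of these genes are held low by nitrogen catabolite repression, in which GATA factors such as the activators Gln3 and Gat1 and the repressor Dal80 act at the promoters, and arginine and proline add their own induction. Such regulators reach RNA polymerase II through the coactivator complex Mediator, whose modules are held together by the subunits Med14 and Med17.

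The 8 groups were Med14 strain with auxin, Med14 strain with DMSO, Med17 strain with auxin and Med17 strain with DMSO, each for newly synthesized and for total RNA, with 2 libraries per group and 16 in all. The strains are labelled OsTIR1 MED14-IAA7 and OsTIR1 MED17-IAA7. Both are MATalpha, express the rice F-box protein OsTIR1 from the GPD1 promoter and carry an IAA7 auxin degron on the named subunit, which auxin targets for degradation. The tables hold RNA only, so the loss of the proteins was not measured here. Both also share ade2, his3, leu2, lys2, met15, trp1 and ura3 mutations, and no strain without a degron was among the samples. For the Med17 samples the strain and source labels were followed, although the genotype given with them lists a MED14 tag. Cells grew in YPD, a rich medium, to mid-log phase and received 500 µM auxin (3-indole acetic acid) or its carrier DMSO for 30 min, then 5 mM 4-thiouracil (4tU) for 6 min. New RNA is the 4tU-labelled fraction and total RNA the unfractionated extract, made after 1 part of these cells was mixed with 3 parts of Schizosaccharomyces pombe. By its title, the study asked how far global transcription depends on each architectural subunit.

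Libraries of new RNA held 3.83 to 13.96 M raw counts and libraries of total RNA 3.30 to 8.84 M. In the deposited normalized counts, new RNA summed to 3.96 and 4.21 M in the Med14 strain with auxin, against 17.1 and 17.7 M with DMSO, and to 2.74 and 2.37 M in the Med17 strain with auxin, against 15.6 and 14.9 M with DMSO. All changes below sit on this fall: for new RNA the median gene was left at 27.6% with Med14 depleted and 15.3% with Med17 depleted, and for total RNA at 59.1% and 38.5%. The alpha-specific genes MF(ALPHA)1, MF(ALPHA)2 and STE3 had 132 or more raw counts in every library. The a-factor gene MFA1 had 0 to 11. Of the 3 a-specific genes examined (STE2, MFA1 and BAR1), 2 passed the filter on low counts in each kind of RNA, so not all of them were silent. URA3, LEU2, LYS2 and MET15, deleted in these strains, had 0 to 2. The cells were mixed with S. pombe at a set proportion, but no source used here says that the normalization rests on it. From these counts alone, fewer cells and less RNA per cell cannot be told apart.

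Levels per kilobase were compared first, since the genes differ in length. In DMSO, CAR2, CAR1 and PUT2 were the 3 most abundant of the 9 in new RNA. In the Med14 strain with DMSO, CAR2 had 2700 ± 71.4 normalized counts per kb of new RNA (SD, n = 2), CAR1 2298 ± 113 and PUT2 2066 ± 26.4, and no 2 neighbours among the 9 overlapped between libraries. They were followed by GDH2 (934 ± 105), DUR1,2 (395 ± 14.4), MEP2 (349 ± 44.5), GAP1 (273 ± 52.4), PUT1 (94.0 ± 15.8) and DAL80 (15.4 ± 9.18). With auxin the order in the Med14 strain was GDH2 (386 ± 37.4), PUT2 (350 ± 35.3), GAP1 (155 ± 7.48), CAR1 (127 ± 22.1) and CAR2 (113 ± 11.1), with overlap between GDH2 and PUT2 and between CAR1 and CAR2. The arginine genes thus stood at ranks 1 and 2 of the 9 in DMSO and at ranks 4 and 5 with auxin. In the Med17 strain with auxin the order was PUT2 (288 ± 7.86), GDH2 (194 ± 3.38), CAR1 (190 ± 30.6), CAR2 (151 ± 33.6) and GAP1 (73.5 ± 3.00), against PUT2, CAR2, CAR1, GDH2 and DUR1,2 with DMSO. There, with auxin, GDH2 overlapped with CAR1 and CAR1 with CAR2. In total RNA CAR2 was the most abundant of the 9 in all 4 groups, with 363 ± 69.3 per kb in the Med14 strain with auxin, against 1001 ± 2.64 with DMSO.

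The genes of arginine breakdown lost more new RNA with auxin in the Med14 strain than nearly all other genes. CAR1 (YPL111W, arginase, chromosome XVI, 339944 to 340945, sacCer3) had 112 and 143 normalized counts of new RNA in the Med14 strain with auxin, against 2383 and 2222 with DMSO. The Med17 strain had 212 and 169 with auxin, against 1544 and 1367 with DMSO. The auxin and DMSO libraries did not overlap in either strain, the Med14 strain with auxin was lowest and the Med14 strain with DMSO was highest. The log2 change was -4.18 (SE 0.180) in the Med14 strain, rank 29 from the lowest of 6072 genes, and -2.94 (SE 0.171) in the Med17 strain, near the median gene of that strain (-2.71).

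CAR2 (YLR438W, ornithine transaminase, chromosome XII, 1012501 to 1013775) showed the same order of groups. Its new RNA was 155 and 135 normalized counts in the Med14 strain with auxin, against 3506 and 3378 with DMSO, and 223 and 162 in the Med17 strain with auxin, against 2122 and 2150 with DMSO. The log2 change was -4.57 (SE 0.177) in the Med14 strain, rank 13 of 6072 from the lowest, and -3.48 (SE 0.169) in the Med17 strain, rank 1045. Relative to the median gene (-1.86 in the Med14 strain), CAR2 stood 2.71 lower and CAR1 2.32 lower on the log2 scale. CAR2 in the Med17 strain stood 0.77 and CAR1 0.23 below the median gene. The dubious open reading frame YLR437C-A overlaps 186 bases of CAR2 and had 45 raw counts over the 8 libraries, against 8293 for CAR2. The library kit was a stranded one, but the sources used here do not say whether counting used strand.

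**Figure D1:**
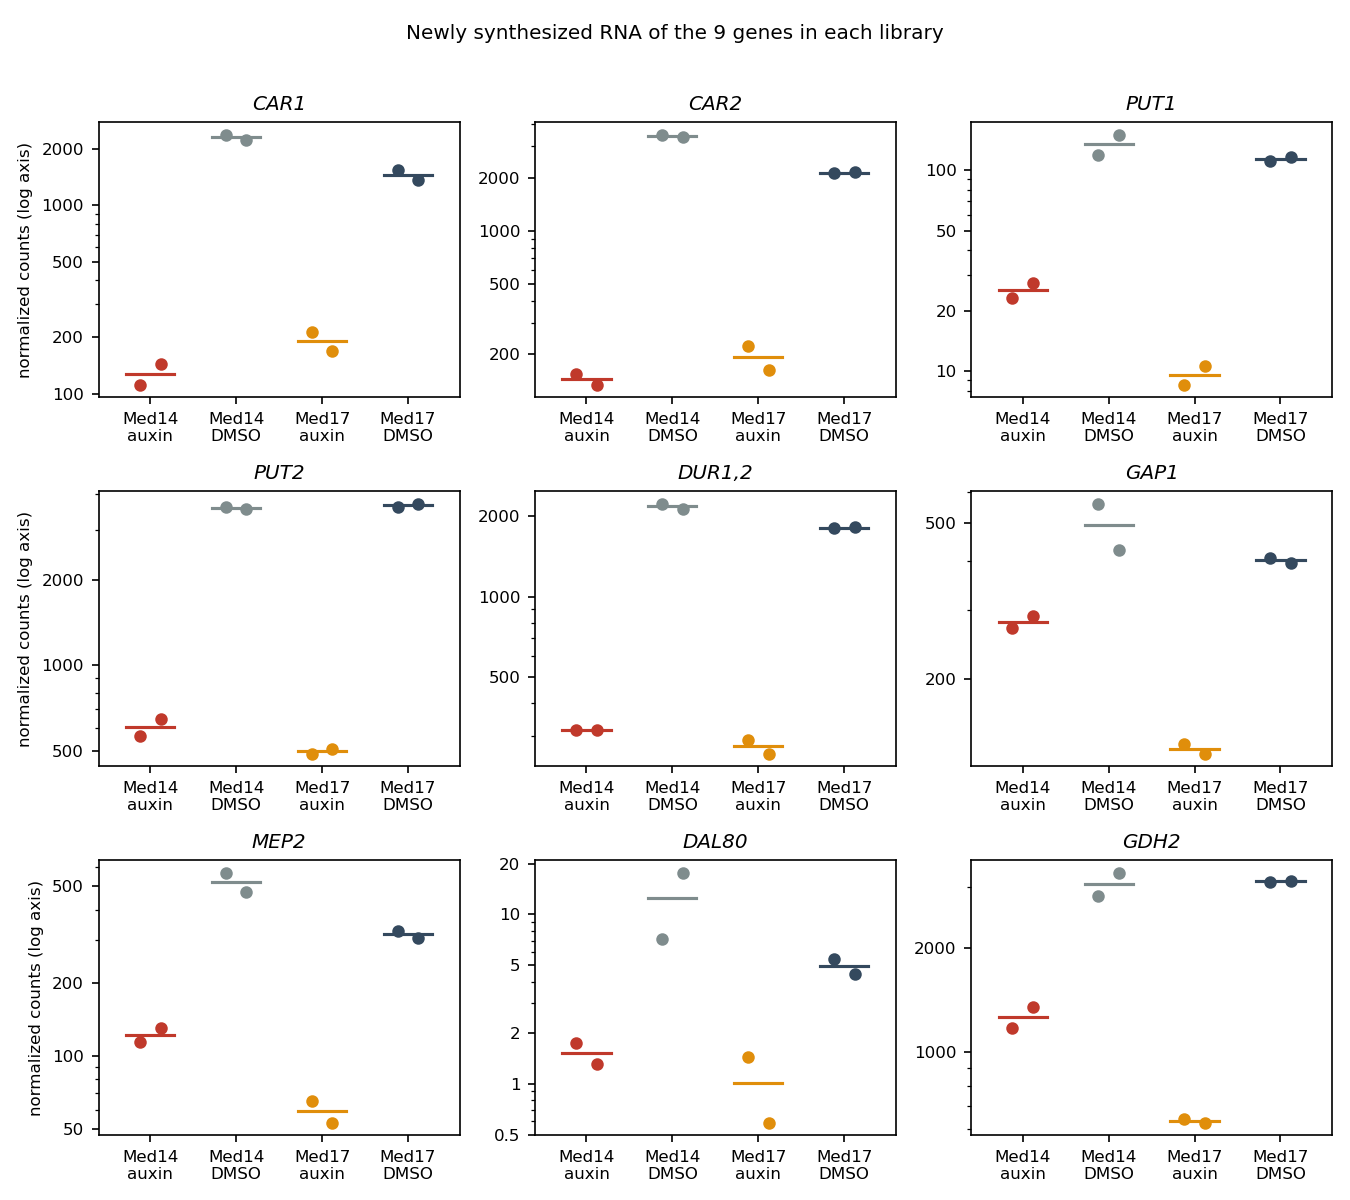
New RNA of the 9 genes as normalized counts on log axes, a panel per gene. Points are the 2 libraries of a group and the short line is their mean. CAR1 and CAR2 are lowest in the Med14 strain with auxin, while the other 6 tested genes are lowest in the Med17 strain with auxin.

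The proline genes fell with auxin in both strains. PUT1 fell more in the Med17 strain, as the median gene also did (-2.71, against -1.86 in the Med14 strain). PUT1 (YLR142W, proline oxidase, chromosome XII, 425186 to 426616) was a low transcript, with 23.2 and 27.6 normalized counts of new RNA in the Med14 strain with auxin, against 118 and 150 with DMSO. The Med17 strain had 8.59 and 10.6 with auxin, against 111 and 116 with DMSO. Its log2 change was -2.41 (SE 0.280) in the Med14 strain and -3.54 (SE 0.323) in the Med17 strain. PUT2 (YHR037W, the next enzyme, chromosome VIII, 181977 to 183704) had 562 and 648 in the Med14 strain with auxin, against 3602 and 3537 with DMSO, and 488 and 508 in the Med17 strain with auxin, against 3591 and 3709 with DMSO. Its log2 changes were close together, -2.56 (SE 0.142) in the Med14 strain and -2.87 (SE 0.145) in the Med17 strain.

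DUR1,2 (YBR208C, urea amidolyase, chromosome II, 636703 to 642210) kept nearly the same share of its new RNA in the 2 strains. It had 316 and 317 normalized counts in the Med14 strain with auxin, against 2234 and 2121 with DMSO, and 292 and 259 in the Med17 strain with auxin, against 1814 and 1816 with DMSO. That left 14.5% in the Med14 strain and 15.2% in the Med17 strain. The log2 changes were -2.78 (SE 0.143) and -2.72 (SE 0.144), so that DUR1,2 lay 0.92 below the median gene in the Med14 strain and at the median gene in the Med17 strain.

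GAP1 and GDH2 lost least of the 8. GAP1 (YKR039W, general amino acid permease, chromosome XI, 515063 to 516871) had 271 and 290 normalized counts of new RNA in the Med14 strain with auxin, against 560 and 426 with DMSO, and 137 and 129 in the Med17 strain with auxin, against 406 and 396 with DMSO. The log2 changes were -0.81 (SE 0.184), higher than in 94.3% of genes, and -1.59 (SE 0.193), higher than in 90.4%. GDH2 (YDL215C, NAD-dependent glutamate dehydrogenase, chromosome IV, 70640 to 73918) had 1178 and 1351 in the Med14 strain with auxin, against 2821 and 3306 with DMSO. GDH2 in the Med17 strain had 642 and 627 with auxin, against 3110 and 3132 with DMSO. Its log2 change was -1.28 (SE 0.141) in the Med14 strain and -2.30 (SE 0.147) in the Med17 strain.

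MEP2 (YNL142W, ammonium permease, chromosome XIV, 357453 to 358952) stayed near the median gene. It had 114 and 131 normalized counts of new RNA in the Med14 strain with auxin, against 571 and 477 with DMSO, and 65.2 and 53.1 in the Med17 strain with auxin, against 328 and 306 with DMSO. The log2 changes were -2.09 (SE 0.196) and -2.43 (SE 0.210). DAL80 (YKR034W, the GATA-type repressor, chromosome XI, 506898 to 507707) was barely detected. It had 3 and 2 raw counts of new RNA in the Med14 strain with auxin, against 4 and 14 with DMSO, and 2 and 1 in the Med17 strain with auxin, against 3 and 3 with DMSO. In total RNA DAL80 had 0 and 3 raw counts in the Med14 strain with auxin, 1 and 1 with DMSO, and 0 in all 4 libraries of the Med17 strain, where a count of 0 allows up to 3 counts per library. Of the reading frame of DAL80, 50.2% overlaps YKR033C, and with so few counts no fold is given for it.

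All 8 tested genes had lower new RNA with auxin by the threshold used (edgeR, Benjamini-Hochberg adjusted p under 0.05) in each strain. The share of all genes called lower was 94.2% in the Med14 strain and 95.0% in the Med17 strain, and 0.560% and 1.70% were called higher, so nothing is read from that count. The authors' constants per library set this direction. With TMM, which moves the median gene to 0.02 in the Med14 strain and -0.04 in the Med17 strain, GAP1 turned to 1.05 and 1.06 and GDH2 to 0.59 and 0.35, and MEP2 turned to 0.22 in the Med17 strain, while CAR1 (-2.32 and -0.29) and CAR2 (-2.70 and -0.84) stayed negative. PUT2 was at -0.70 and -0.22 and DUR1,2 at -0.92 and -0.08. In the Med17 strain CAR1, PUT2, DUR1,2 and MEP2 did not pass the threshold under TMM, nor did PUT1 (-0.55) and MEP2 (-0.23) in the Med14 strain. Another scaling shifts all genes of a comparison by about the same amount. Their order relative to the median gene is therefore bound to stay, and its staying is no support. In that order CAR1 and CAR2 were lowest of the 8 in the Med14 strain, and GAP1 was highest in both strains.

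**Figure D2:**
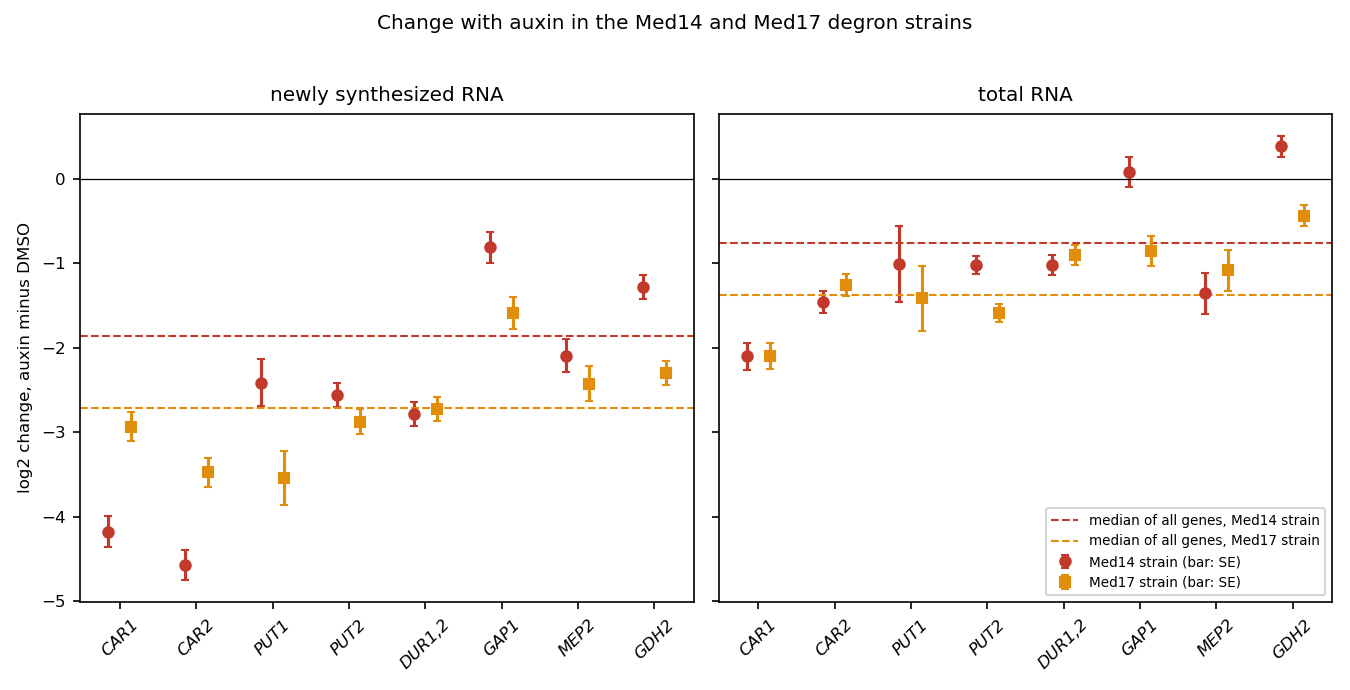
Log2 change with auxin (auxin minus DMSO) of new RNA on the left and total RNA on the right, for the 8 tested genes. Circles are the Med14 strain and squares the Med17 strain, bars are standard errors, and dashed lines are the medians of all genes tested in each strain. In new RNA CAR1 (-4.18) and CAR2 (-4.57) lie far below the Med14 line, and in total RNA GAP1 (0.08) and GDH2 (0.38) lie above 0 in the Med14 strain.

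Total RNA was then examined, which holds RNA made before the treatment as well. CAR1 fell most of the 8 genes in both strains, and GDH2 was the single gene that rose, in the Med14 strain. In the Med14 strain 5 of the 8 genes fell and 1 rose, where 75.1% of all genes were called lower and 1.62% higher. In the Med17 strain all 8 fell, where 87.4% of all genes were called lower and 2.42% higher. These shares of all genes leave the counts of lower calls close to the background. TMM moves the median gene of total RNA to -0.06 in the Med14 strain and -0.16 in the Med17 strain, and its values are given beside those of the genes.

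CAR1 had 98.8 and 70.9 normalized counts of total RNA in the Med14 strain with auxin, against 378 and 358 with DMSO, and 99.2 and 88.5 in the Med17 strain with auxin, against 394 and 412 with DMSO. The log2 change was -2.10 in each strain (SE 0.161 and 0.150, edgeR adjusted p = 9.4e-06 and 2.52e-07), and auxin and DMSO libraries did not overlap. CAR2 had 525 and 400 in the Med14 strain with auxin, against 1274 and 1279 with DMSO, and 450 and 473 in the Med17 strain with auxin, against 1081 and 1122 with DMSO. It fell by 1.46 on the log2 scale in the Med14 strain (SE 0.131, adjusted p = 1.06e-05) and by 1.26 in the Med17 strain (SE 0.129, adjusted p = 1.65e-06). In the Med14 strain CAR1 was at percentile 1.64 and CAR2 at 9.69 of all log2 changes, and in the Med17 strain at 13.7 and 57.4. With TMM the change in the Med14 strain was -1.41 for CAR1 and -0.77 for CAR2. The change of CAR1 in the Med17 strain was -0.89, and that of CAR2 was -0.04 and no longer called.

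GDH2 had 602 and 671 normalized counts of total RNA in the Med14 strain with auxin, against 451 and 525 with DMSO, and 401 and 361 in the Med17 strain with auxin, against 555 and 480 with DMSO. It rose in the Med14 strain, with no overlap between the libraries (0.38, SE 0.126, edgeR adjusted p = 0.0156, with 1.08 under TMM), and fell in the Med17 strain (-0.44, SE 0.125, adjusted p = 0.00551), where TMM gave 0.78. The rise was lost without auxin replicate 2 of the Med14 strain (0.30, adjusted p = 0.0938) or without its DMSO replicate 1 (0.28, adjusted p = 0.108), and the fall when the second Med17 auxin library was left out (-0.36, adjusted p = 0.0548). GAP1 had 101 and 94.5 in the Med14 strain with auxin, against 87.7 and 97.5 with DMSO, which overlapped (0.08, SE 0.177, adjusted p = 0.685). With TMM that change was 0.77 and called higher (edgeR adjusted p = 0.00426). In the Med17 strain GAP1 had 59.4 and 52.5 with auxin, against 95.2 and 106 with DMSO, and fell by 0.86 (SE 0.174, adjusted p = 4.88e-04), with 0.34 under TMM.

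PUT2, DUR1,2 and MEP2 fell in total RNA of both strains. PUT2 had 333 and 296 normalized counts in the Med14 strain with auxin, against 647 and 631 with DMSO (-1.02, edgeR adjusted p = 2.09e-05), and 271 and 270 in the Med17 strain with auxin, against 788 and 836 with DMSO (-1.59, adjusted p = 2.32e-07). DUR1,2 had 279 and 239 in the Med14 strain with auxin, against 511 and 544 with DMSO (-1.02, adjusted p = 3.7e-05), and 293 and 335 in the Med17 strain with auxin, against 601 and 576 with DMSO (-0.90, adjusted p = 1.13e-05). With TMM the change of DUR1,2 in the Med17 strain was 0.31 and called higher (edgeR adjusted p = 0.0235). For these genes auxin and DMSO libraries did not overlap in either strain. MEP2 had 37.0 and 27.8 in the Med14 strain with auxin, against 87.7 and 80.4 with DMSO (-1.36, adjusted p = 3.86e-04), and 21.1 and 26.2 in the Med17 strain with auxin, against 47.6 and 51.9 with DMSO (-1.09, adjusted p = 0.00111, with 0.11 under TMM). In the Med14 strain TMM gave -0.33 for PUT2, -0.33 for DUR1,2 and -0.67 for MEP2, and -0.37 for PUT2 in the Med17 strain. PUT1 had only 6 to 34 raw counts per library of total RNA. It changed by -1.01 in the Med14 strain (SE 0.453, adjusted p = 0.0592), which was not called, and fell by 1.42 in the Med17 strain (SE 0.383, adjusted p = 0.00377). With TMM PUT1 was at -0.32 and -0.22 in the Med14 and Med17 strains and called in neither.

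**Figure D3:**
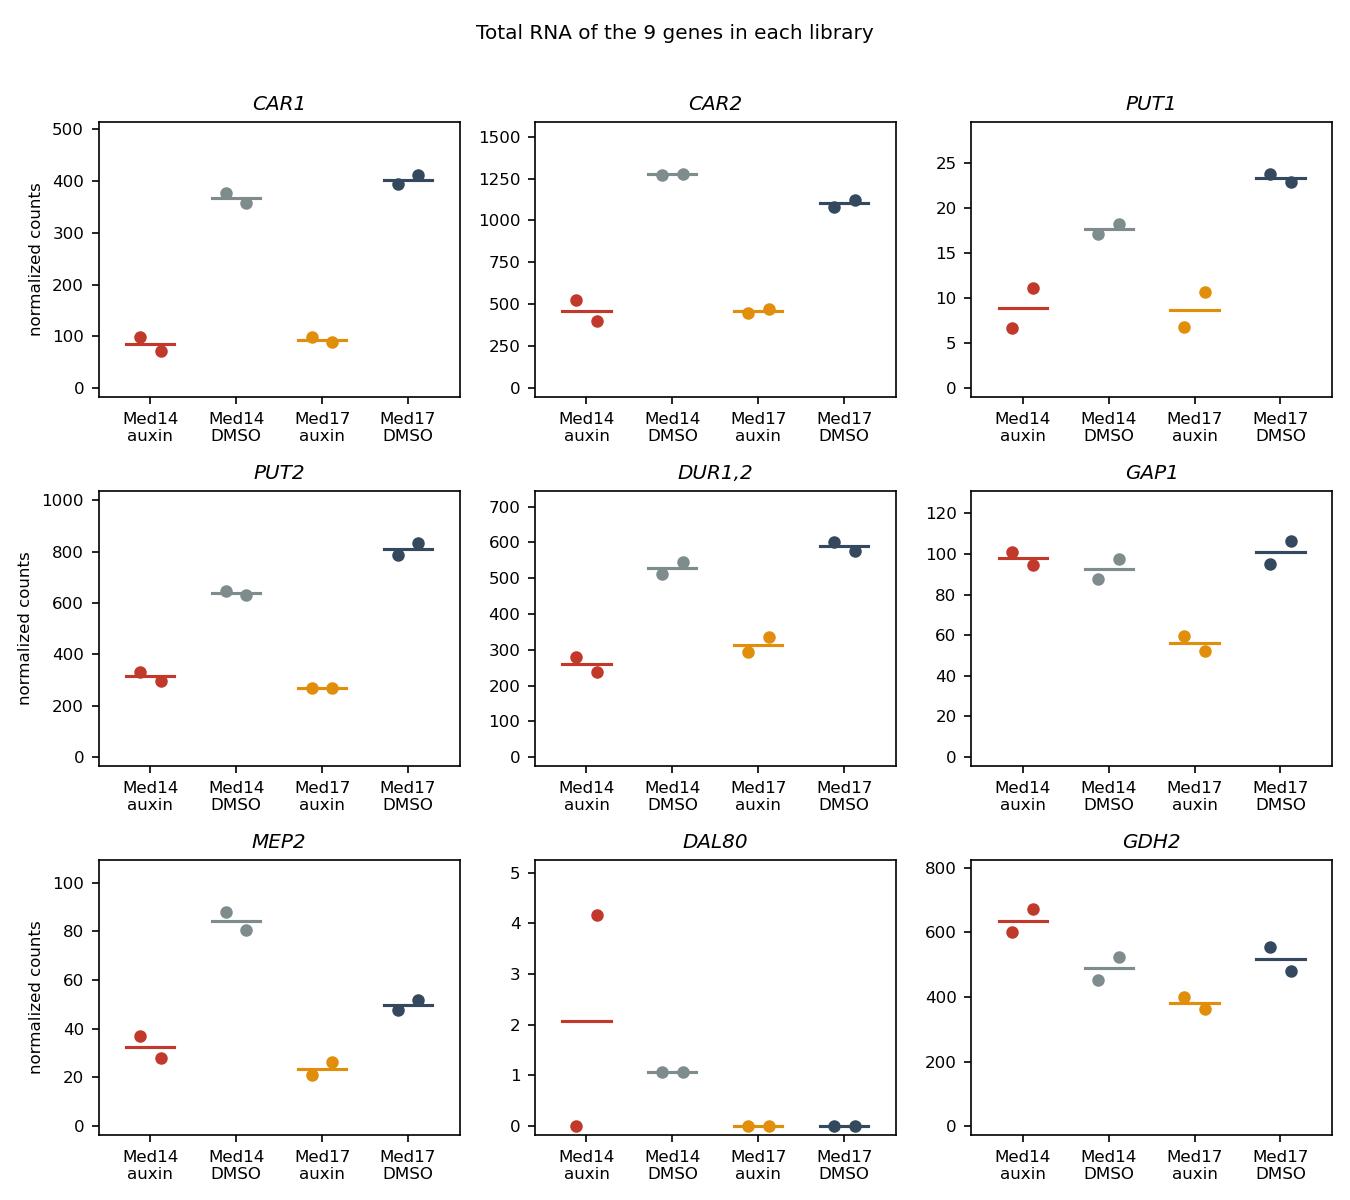
Total RNA of the 9 genes as normalized counts on linear axes, a panel per gene, with the 2 libraries of a group as points and their mean as a line. GDH2 is higher with auxin than with DMSO in the Med14 strain (means 636 and 488) and lower with auxin in the Med17 strain (381 and 518). GAP1 overlaps between auxin and DMSO in the Med14 strain and not in the Med17 strain.

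Shares left after auxin, taken from the group means, put both kinds of RNA side by side without a test, since the tables were normalized separately. In the Med14 strain CAR1 was left at 5.54% in new and 23.1% in total RNA, and CAR2 at 4.20% and 36.3%. GAP1 was left at 56.8% and 106%, and GDH2 at 41.3% and 130%. In the Med17 strain CAR1 was left at 13.1% and 23.3%, CAR2 at 9.01% and 41.9%, GAP1 at 33.2% and 55.5%, and GDH2 at 20.3% and 73.6%. Each of the 8 genes kept a larger share in total than in new RNA in both strains, as the median gene did (27.6% in new and 59.1% in total RNA of the Med14 strain, 15.3% and 38.5% in the Med17 strain). In the DMSO libraries the ratio of new to total normalized counts of CAR2 was 0.471 times that of the median gene in the Med14 strain and 0.401 times in the Med17 strain, at percentiles 9.3 and 8.6 of 5596 genes. PUT1 stood at percentile 90.8 in the Med14 strain and 50.7 in the Med17 strain, on its low counts.

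The auxin changes of the Med14 and Med17 strains were then compared as a difference of log2 changes. For the median gene this difference was 0.82 in new RNA and 0.54 in total RNA, so that RNA in general fell less in the Med14 strain. CAR1 and CAR2 went the other way in new RNA. Their differences were -1.24 (SE 0.233) and -1.09 (SE 0.226), at percentiles 2.29 and 2.73 of 6072 genes. By the same threshold 2 of the 8 genes had a lower and 3 a higher difference, where 3.28% of all genes were called lower and 59.6% higher, and nothing is read from that count, since these contrasts may have been in view when the genes were chosen. PUT1 (1.13, SE 0.432), GDH2 (1.02, SE 0.198) and GAP1 (0.78, SE 0.264) had higher differences, within 0.31 of the median gene. Leaving out 1 library in turn lost the call of PUT1 in 6 of 8 fits and that of GAP1 in 3, and with TMM none of these 3 was called. PUT2 (0.31), MEP2 (0.33) and DUR1,2 (-0.06) were not called. The difference of DUR1,2 passed the threshold as lower under TMM (-0.84), median-of-ratios (-0.89) and total-count scaling (-0.55), and that of PUT2 under TMM (-0.47) and median-of-ratios (-0.53). TMM called 18% of all genes lower and 16.8% higher.

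The level of the arginine genes in DMSO differed between the strains beside this difference. In DMSO new CAR1 RNA was higher in the Med14 than in the Med17 strain by 0.66 (SE 0.156) and CAR2 by 0.69 (SE 0.151). The median gene was itself higher by 0.21, and CAR1 stood 0.455 and CAR2 0.481 above it. With auxin, CAR1 averaged 127 ± 22.2 normalized counts in the Med14 strain and 190 ± 30.7 in the Med17 strain, and CAR2 144.7 ± 14.2 and 192 ± 42.8 (SD, n = 2), with no overlap and no test. The strain differences in CAR1 and CAR2 thus hold both a higher level in DMSO and a lower level with auxin in the Med14 strain. Both are a description. The Med14 libraries with DMSO also enter the fall of new CAR2 RNA that was in view when the genes were chosen. With TMM the differences of the changes were -2.02 for CAR1 and -1.86 for CAR2, and the higher levels in DMSO were 0.49 and 0.51.

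In total RNA the difference between the strains was not called for the arginine genes. It was -0.0008 for CAR1 (SE 0.190, edgeR adjusted p = 0.997) and -0.20 for CAR2 (SE 0.181, adjusted p = 0.373). That test is against 0, while the median gene was at 0.54. Relative to the median gene CAR1 stood at -0.545 (percentile 15.45) and CAR2 at -0.749 (percentile 8.92), so both were still on the low side. Of the 8 genes, 3 had a higher difference and 0 a lower one, where 41.3% of all genes were called higher and 1.23% lower. They were GAP1 (0.94, SE 0.249, adjusted p = 0.0122), GDH2 (0.82, SE 0.178, adjusted p = 0.00531) and PUT2 (0.57, SE 0.153, adjusted p = 0.0129). All 3 lay within 0.40 of the median gene, and with TMM none of them was called, whereas CAR2 (-0.73, adjusted p = 0.0185) and DUR1,2 (-0.64, adjusted p = 0.0197) were called lower. The call of PUT2 was lost without auxin replicate 1 of the Med14 strain (0.48, adjusted p = 0.0599). PUT1 (0.41), DUR1,2 (-0.12) and MEP2 (-0.27) were not called.

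**Figure D4:**
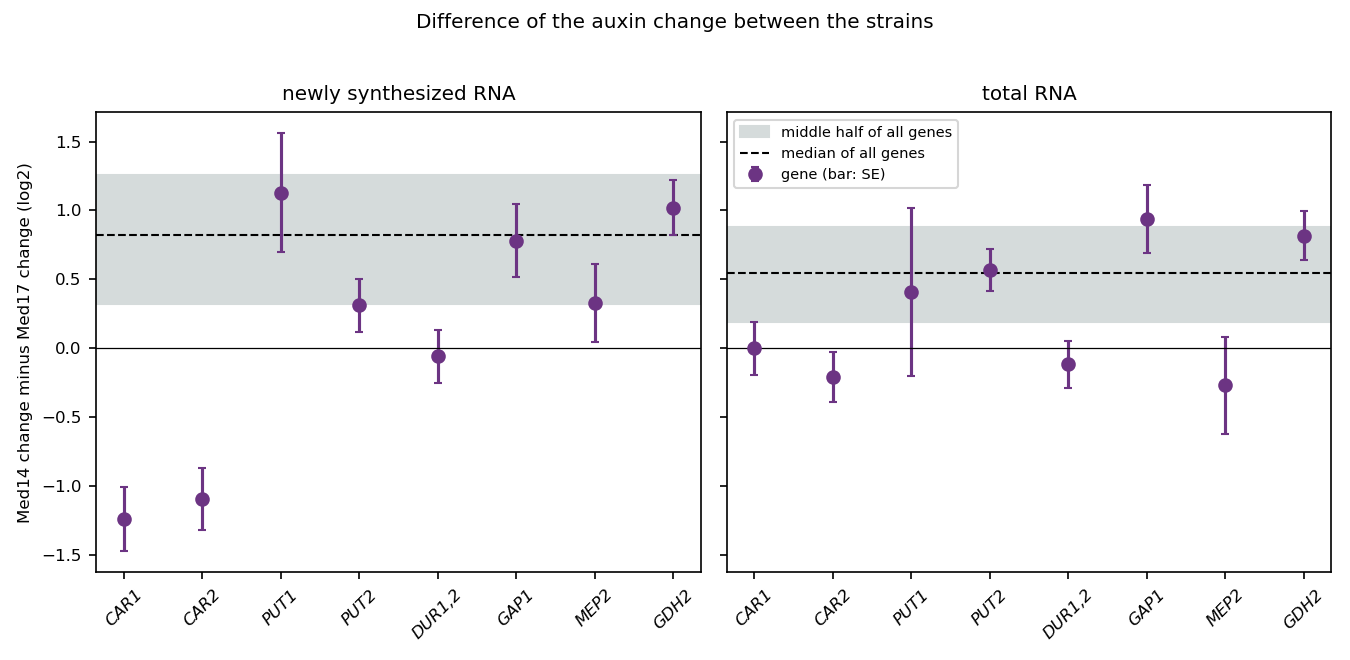
Difference of the auxin changes (Med14 change minus Med17 change, log2) of new RNA on the left and total RNA on the right, with standard errors. The grey band runs between the quartiles of all genes tested and the dashed line is their median (0.82 and 0.54). In new RNA CAR1 and CAR2 lie below 0 and outside the band. In total RNA they lie nearer 0, and also below the band.

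The strains were also compared in DMSO, where the degron is present and auxin is not. For the median gene this difference (Med14 minus Med17) was 0.21 in new RNA and -0.08 in total RNA. In new RNA CAR1, CAR2 and MEP2 were higher in the Med14 strain, 3 of 8, where 24.1% of all genes were called higher and 6.04% lower. For CAR1 and CAR2 this is a description, and nothing is read from the count. MEP2 had 571 and 477 normalized counts in the Med14 strain, against 328 and 306 in the Med17 strain, a difference of 0.72 (SE 0.192, edgeR adjusted p = 0.00886). The call of MEP2 was lost without DMSO replicate 1 of the Med14 strain (0.59) or DMSO replicate 2 of the Med17 strain (0.67). That of CAR1 was lost without DMSO replicate 2 of the Med17 strain (0.58). In total RNA MEP2 was higher in the Med14 strain (87.7 and 80.4, against 47.6 and 51.9 in the Med17 strain, 0.74, adjusted p = 0.0355). PUT2 was lower in the Med14 strain (-0.35, adjusted p = 0.0427). That made 1 of 8 higher and 1 of 8 lower, where 5.83% of all genes were called higher and 9.69% lower, and both calls were lost with DESeq2 and when any of the 4 DMSO libraries was left out.

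Around these 9 genes, 63 further genes of nitrogen metabolism in 8 lists were counted. All 63 had lower new RNA with auxin in both strains, as nearly all genes had, with medians of -2.03 in the Med14 strain and -2.69 in the Med17 strain. In the difference between the strains 4 of the 63 were lower and 35 higher in new RNA, and 2 of the 61 tested were lower and 20 higher in total RNA, with medians of 0.65 and 0.55. Of all genes, 3.28% were called lower and 59.6% higher in new RNA and 1.23% lower and 41.3% higher in total RNA, with medians of 0.82 and 0.54, and nothing particular to the lists is read from their counts. The 4 with a lower difference in new RNA were glutamine synthetase GLN1 (YPR035W, -1.26, SE 0.233, edgeR adjusted p = 2.33e-04), the ammonium-assimilating glutamate dehydrogenase GDH1 (YOR375C, -1.18, SE 0.188, adjusted p = 7.34e-05), argininosuccinate synthetase ARG1 (YOL058W, -1.16, adjusted p = 0.00266) and CPA1 (YOR303W, -0.87, adjusted p = 0.00864), a subunit of carbamoyl phosphate synthetase. In DMSO new GLN1 RNA was already higher in the Med14 than in the Med17 strain (log2 difference 1.12), while that of ARG1 was lower (-1.10). A lower difference therefore does not rest on the same levels in each of these genes. By list, ammonia assimilation had 2 of 4 genes lower, 1 not called and 1 higher, the glutamate dehydrogenase gene GDH3 (YAL062W, 1.66, adjusted p = 0.0121). GDH1 averaged 1111 ± 57.2 normalized counts of new RNA in the Med14 strain with auxin, against 5751 ± 272 with DMSO, and 1226 ± 57.9 in the Med17 strain with auxin, against 2800 ± 91.9 with DMSO.

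**Figure D5:**
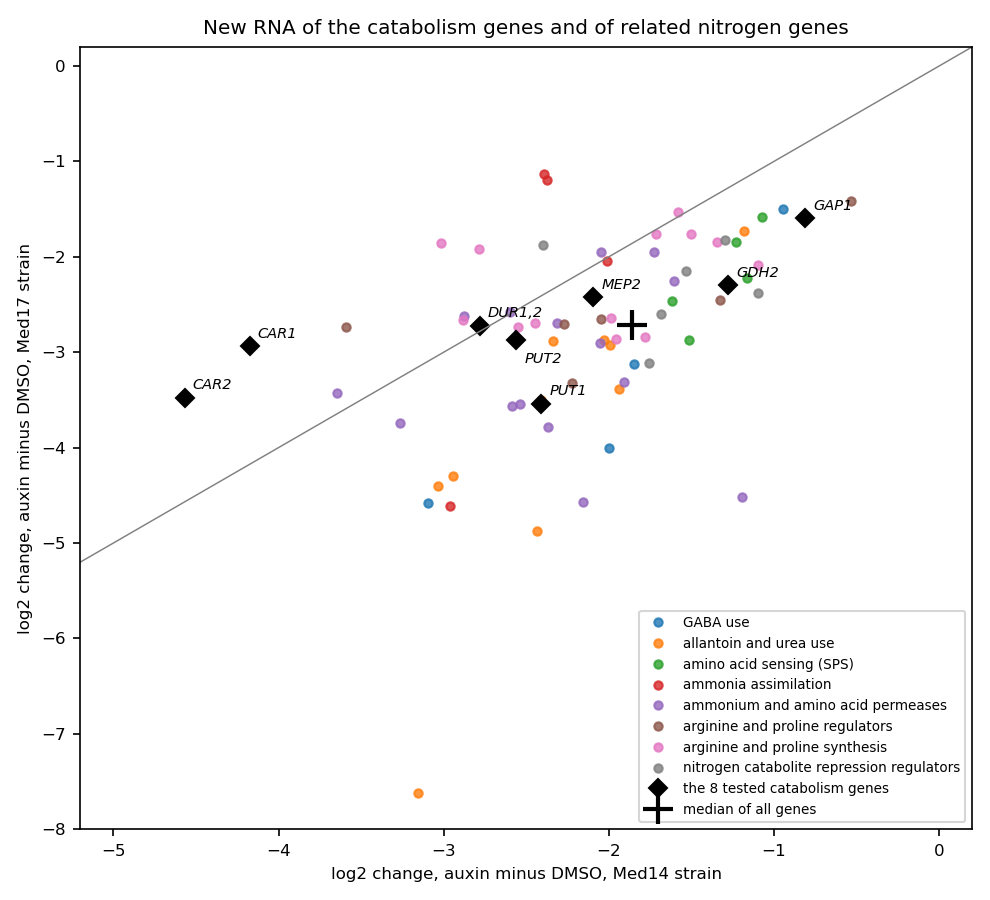
Log2 change of new RNA with auxin in the Med14 strain (x axis) and the Med17 strain (y axis). Diamonds are the 8 tested catabolism genes, dots the 63 genes of the 8 lists, the cross the median of all genes, and the line marks equal change. CAR1 and CAR2 lie above the line at the far left, with GDH1 and GLN1 above it nearer the middle.

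The regulators of arginine and proline genes did not move alike. ARG80 (YMR042W, a regulator of arginine genes) changed by -3.59 in new RNA of the Med14 strain (edgeR adjusted p = 1.49e-09) and by -2.74 in the Med17 strain, a difference of -0.85 that was not called (adjusted p = 0.0646). ARG82 (YDR173C, an inositol polyphosphate kinase gene) changed least of that list, by -0.53 in the Med14 strain and -1.42 in the Med17 strain. UME6 (YDR207C), which encodes a repressor that acts at CAR1 and CAR2, changed by -2.22 and -3.32 in the Med14 and Med17 strains, and PUT3 (YKL015W), the activator of PUT1 and PUT2, by -1.33 and -2.46. Both had a higher difference (1.10 and 1.13), as 4 of the 6 genes of the list had, and 0 had a lower one. ARG81 (YML099C) had the lowest of these 4 (0.61). Of all genes, 59.6% were called higher and 3.28% lower. In total RNA PUT3 changed by -0.49 in the Med14 strain and -1.49 in the Med17 strain, and that difference was also called (0.99, adjusted p = 0.00223).

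The regulators of nitrogen catabolite repression were 6 genes, of which 5 lay above the median gene in new RNA of each strain. In total RNA 4 of them lay above it in the Med14 strain and 3 in the Med17 strain. In new RNA the GATA activator gene GLN3 (YER040W) changed by -1.29 in the Med14 strain and -1.83 in the Med17 strain, and GAT1 (YFL021W) by -2.40 and -1.88. Neither difference between the strains was called (0.53 and -0.52, edgeR adjusted p = 0.0569 and 0.103). URE2 (YNL229C), whose product holds these activators back, changed by -1.76 and -3.11, the highest called difference of the list (1.35, adjusted p = 3.48e-05). GZF3 (YJL110C, a GATA repressor) had the lowest called difference (0.62), and NPR1 (YNL183C, a kinase that acts on permeases) changed least in the Med14 strain (-1.10). In total RNA the highest called difference was that of NPR2 (YEL062W, 1.34, adjusted p = 0.00428).

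Of 15 permease genes other than GAP1 and MEP2, 8 had a higher difference in new RNA and 0 a lower one, near the 59.6% of all genes called higher, and their median was 0.65, against 0.82 for all genes. The arginine permease gene CAN1 (YEL063C) changed by -1.61 in the Med14 strain and -2.25 in the Med17 strain (difference 0.65, edgeR adjusted p = 0.0117). The ammonium permease genes MEP1 (YGR121C, difference 2.41, adjusted p = 0.00133) and MEP3 (YPR138C, 0.98, adjusted p = 0.00644) were called, whereas the difference of MEP2 was 0.33 and not called. For the proline permease gene PUT4 (YOR348C) the difference of 3.33 rests on 0 and 3 raw counts in the Med17 strain with auxin. In total RNA 2 of the 15 had a lower difference and 3 a higher one, where 1.23% of all genes were called lower and 41.3% higher. The 2 were ALP1 (YNL270C), with 0 raw counts in both Med14 libraries with auxin, and GNP1 (YDR508C, -0.65, adjusted p = 0.0202).

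Of the 10 genes of allantoin and urea use, 7 had a higher difference in new RNA and 0 a lower one, with a median of 1.22. Of all genes, 59.6% were called higher and 3.28% lower, with a median of 0.82. DAL5 (YJR152W, the allantoate permease) changed by -1.94 in the Med14 strain and -3.38 in the Med17 strain (difference 1.44, edgeR adjusted p = 4.11e-04). DUR1,2, which works downstream of allantoin, had a difference of -0.06 and lay below all 10, whose lowest value was the 0.54 of DAL81 (YIR023W), an activator of these genes. The highest difference of the list, 4.47 for DCG1 (YIR030C), rests on 1 raw count in each Med17 library with auxin. Of 4 genes of GABA use 2 had a higher difference, with UGA2 (YBR006W, succinate semialdehyde dehydrogenase) at 2.00 (adjusted p = 2.03e-05). All 5 genes of amino acid sensing had a higher difference, between STP1 (YDR463W, a transcription factor, 0.51) and SSY1 (YDR160W, the sensor, 1.36). Of 13 genes of arginine and proline synthesis 4 had a higher and 2 a lower difference, between ARG1 and ORT1 (YOR130C, the mitochondrial ornithine carrier, 1.06).

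Genes with the most similar pattern were sought over the 4 log2 changes with auxin (2 strains, 2 kinds of RNA), by Euclidean distance among genes with a mean of at least 50 normalized counts in each table. Nearest to CAR1 were PRY2 (YKR013W, a sterol-binding protein, distance 0.53), YNL327W (a cell wall endoglucanase, 0.57) and YNL030W (histone H4, 0.58). Nearest to CAR2 were HSP12 (YFL014W, a membrane protein, 0.62), GAS1 (YMR307W, a cell wall glucanosyltransferase, 0.67) and YMR120C (an enzyme of purine synthesis, 0.67). The median distance of all genes was 2.94 from CAR1 and 3.02 from CAR2. Nearest to GAP1 were OAZ1 (YPL052W, the ornithine decarboxylase antizyme, 0.12), MOT2 (YER068W, of the CCR4-NOT complex, 0.21) and YKL028W (the large TFIIE subunit, 0.22), with a median distance of 1.99. Nearest to PUT1 were DTD1 (0.11), SMX2 (0.18) and YDR056C (0.19). The nearest gene was YDR210W for PUT2 (0.15), YDR214W for DUR1,2 (0.12), YOL011W for MEP2 (0.18) and YPL009C for GDH2 (0.25). None of these 16 genes was among the 9, 12 of the 16 were named again with a minimum of 200, and PUT1 and MEP2 themselves had a mean under 50 in total RNA.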

How the data were processed

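For every library the authors deposited a table with raw counts per gene, a normalized signal and that signal per kb of transcript, per the file headers. Within a library the normalized signal is the raw count multiplied by a fixed constant. The submitters' processing notes list bcl2fastq 2.17.1.14 and the genome build sacCer3. No source used here names the aligner, the counter, its strand setting, the annotation or the origin of the constants.

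New and total RNA were analysed separately with edgeR 4.0.16 in R 4.3.3 (quasi-likelihood, two-sided), on raw counts of the 8 libraries of each kind, with group as the factor and the authors' constants as scaling. filterByExpr set the genes tested. Calls needed an adjusted p (Benjamini-Hochberg, all tested genes) below 0.05. The procedure was tested on simulated data. The 4 contrasts were auxin against DMSO within each strain, the difference between these 2 changes, and Med14 against Med17 in DMSO. With 2 libraries a group an exact two-sided p cannot go below 0.333, so none was computed. Replicates are only numbered in the labels, so p-values measure the spread between these libraries, which may be technical. In new RNA the second libraries of the Med14 strain, with auxin and with DMSO, carry an added (2) in their source labels. No other library has it, and its meaning is not stated. Whatever it marks is therefore mixed into the comparisons of the Med14 with the Med17 strain in new RNA, and its part in them was not tested. Replicates differed beyond sampling noise (chi-square per degree of freedom 7.29 to 30.0).

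The 9 genes and all lists were chosen with earlier results of these data known. The naming rule took the 9 genes, CAN1, PUT4, PUT3, UME6, GLN3, GAT1, GDH1, MEP1, MEP3 and DAL5, and in each list the called gene farthest from the median of all genes on either side, of which the text prints mainly those of the difference between the strains. CPA1 and GNP1 were named after their values were seen. For likeness the rule took the 3 nearest genes of CAR1, CAR2, PUT1 and GAP1 and the nearest of each other gene. The files name 5 of the 9 genes and 30 of the 63 list genes; the other names come from the lists and were matched by systematic ID. Alternatives were TMM, median-of-ratios and total-count scaling, no filter, DESeq2 1.42.0, a replicate block, leaving out each library, and a minimum mean of 200 for likeness. A planned motif search of the promoters was not run, and the authors' deposited fold changes were not used here. Many list genes are given in counts and ranges only.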

Additional observations from a re-analysis of the deposited data

Results flagged for a closer look

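The change with auxin passed the threshold for a difference between the Med14 and Med17 strains in 5 of the 8 genes in new RNA (2 lower, 3 higher) and in 3 in total RNA (all higher). Of all genes, 3.28% were called lower and 59.6% higher in new RNA, and 1.23% lower and 41.3% higher in total RNA. New RNA gave -1.24 for CAR1, -1.09 for CAR2, 1.13 for PUT1, 0.78 for GAP1 and 1.02 for GDH2 (Med14 change minus Med17 change, log2), where the median of all genes was 0.82. Total RNA gave 0.57 for PUT2, 0.94 for GAP1 and 0.82 for GDH2, where the median was 0.54. The values of new RNA may have been in view when the genes were chosen, so they are a description, and nothing is read from their count.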

How the results depend on the processing

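Under the other 3 scalings 105 values of single genes kept their direction and side of the threshold. With the same sign, 39 lost their call and 9 gained one. Another 39 changed sign, and some of these lost or gained a call as well. The median change of all genes in the Med14 and Med17 strains was 0.02 and -0.04 in new RNA and -0.06 and -0.16 in total RNA under TMM, and 0.25 and -0.11 in new RNA and -0.41 and -0.86 in total RNA under total-count scaling. Values follow in the order TMM, median-of-ratios and total-count. In new RNA of the Med14 strain each scaling called 4 genes lower and 2 higher, with GAP1 at 1.05, 1.04 and 1.28 and GDH2 at 0.59, 0.57 and 0.81. Of all genes TMM called 24.3% lower and 24.9% higher there. In new RNA of the Med17 strain 2, 2 and 3 genes were lower and 2 higher each time. GAP1 was at 1.06, 1.09 and 0.99, MEP2 at 0.22, 0.26 and 0.15 and GDH2 at 0.35, 0.39 and 0.28. TMM called 30.3% of all genes lower and 28.5% higher in that comparison. Shares under median-of-ratios and total-count are not given, and nothing is read from the counts of genes. For the difference between the strains in new RNA, 4 genes were lower and 0 higher under TMM and median-of-ratios, and 1 was higher under total-count; PUT2 was at -0.47, -0.53 and -0.18, MEP2 at -0.45, -0.50 and -0.16, and GAP1 at -0.0037 and -0.056 under the first 2. CAR1 (-2.02, -2.08 and -1.73) and CAR2 (-1.86, -1.92 and -1.57) kept their direction and call there under all 3. DUR1,2 gained a lower call under all 3 (-0.84, -0.89 and -0.55). For that difference TMM called 18% of all genes lower and 16.8% higher. These values of new RNA may have been in view when the genes were chosen, so they are a description and their calls are no support.

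In total RNA of the Med14 strain 2 genes were higher under TMM and median-of-ratios, and 2 lower under median-of-ratios. Of all genes TMM called 19.1% lower and 18.7% higher there. In the Med17 strain TMM called 2 lower and 2 higher, median-of-ratios 1 lower and 3 higher, and total-count 5 lower. TMM called 34% of all genes lower and 26.1% higher in that strain. There DUR1,2 was at 0.31 and 0.44, GAP1 at 0.34 and 0.47 and MEP2 at 0.11 and 0.24 under TMM and median-of-ratios, GDH2 at 0.78, 0.91 and 0.080, and CAR2 at 0.083 under median-of-ratios. For the difference in total RNA 2 genes were lower and 0 higher under TMM and median-of-ratios and 1 higher under total-count. PUT1 was at -0.10 and -0.17 under the first 2, and PUT2 at -0.027 under median-of-ratios. TMM called 8.4% of all genes lower and 5.99% higher for that difference, and nothing is read from the counts. In DMSO total-count gave 0.0097 for CAR1, 0.0027 for GAP1 and 0.070 for GDH2.

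The lower call in total RNA in DMSO (PUT2) fell to 0 genes under all 3 scalings, without the filter, with DESeq2 and with the replicate block, and the higher call (MEP2) to 0 with DESeq2 and the replicate block. The replicate block gave -0.35 for PUT2 (edgeR adjusted p = 0.0657) and 0.74 for MEP2 (adjusted p = 0.0611) and changed no other call of the 8 genes. The labels do not say that a number marks a shared culture, and same-numbered libraries correlated at 0.116 to 0.255 between auxin and DMSO of a strain and at -0.256 to 0.095 across strains. For the difference between the strains, DESeq2 also lost the call of PUT1 in new RNA (1.143) and of GAP1 in total RNA (0.94, DESeq2 adjusted p = 0.0579).

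Leaving out 1 library gave 8 to 9 lower calls in new RNA of the Med14 strain, where DAL80 can pass the filter, and 8 in the Med17 strain. The difference had 2 lower and 1 to 3 higher calls in new RNA and 0 lower and 2 to 3 higher in total RNA. Strains in DMSO had 1 to 3 higher calls in new RNA and 0 to 1 lower and 0 to 1 higher in total RNA. Total RNA had 5 lower and 0 to 1 higher calls in the Med14 strain and 7 to 8 lower in the Med17 strain. Values that crossed 0 were uncalled: the difference of DUR1,2 in new RNA (-0.14 to 0.028) and of CAR1 in total RNA (-0.27 to 0.20), and GDH2 in DMSO (-0.15 to 0.083 in new and -0.19 to 0.026 in total RNA). No share of all genes is set beside the counts of calls with 1 library left out, and nothing is read from those counts. Depth limits PUT1 and DAL80, the genes with fewest counts. The cause of the changes under other settings was not tested.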
